A study of Drosophila melanogaster with 2 samples.

Results

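Unshared regions were the strong candidate binding regions of Crg-1-GFP that one replicate placed in its top list and the other did not. Each of the 2 replicates had a deposited list of 30000 regions on the dm6 build, down to background. The roughly 3700 regions of highest signal formed the top of each list, exactly as many as the authors' thresholded set held. A top region was unshared when no top region of the other replicate overlapped it by even 1 bp. This gave 877 regions in replicate 2 (23.7% of its top) and 866 in replicate 3 (23.4%), or 1743 regions out of 7414 at the top of both lists and of 60000 in all. The members were selected by the ranks themselves, so nothing is read from those counts or from the ranks, which are given as a description without a test. The remaining 2830 top regions of replicate 2 and 2841 of replicate 3 met a top region of the other replicate and are called shared.

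The material was whole adult Drosophila melanogaster, males and females pooled, of unknown age. The line stably carried Crg-1 with GFP fused to its C terminus, and an antibody against GFP drew down the chromatin, which had been sonicated to between 200 and 800 bp. Both libraries belong to 1 group, numbered 2 and 3 by the labels, with separate biosamples and the same donor label. They shared 1 control alignment, and no untagged line was analysed here. The number of reads behind each list is unknown.

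Crg-1 belongs to the forkhead family, whose members bind DNA through a winged-helix domain that reads a short A-rich core preceded by a purine and a pyrimidine. Its gene was first described as regulated with the circadian clock. In a ChIP experiment the strongest regions usually recur between replicates, while those near a list's lower limit move in and out of it as their rank shifts. In chromatin of a whole animal, a site bound in a few cells and a site bound weakly in many cannot be told apart.

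The following summit windows show unshared regions at the extremes of the set. Each is 101 bases of the RefSeq Release 6 genome (dm6), plus strand, centred on the deposited summit, and windows that touched an annotated UTR were passed over. Capitals mark matches to the patterns described further on. The trx window lies in an intron at chr3R:14283859-14283959, the spri window in an intron at chrX:10547272-10547372, the wnd window at a promoter at chr3L:19633185-19633285 and the Rh5 window between genes at chr2L:12007513-12007613. They are among the strongest unshared regions that the other list still held, at a lower rank. The CG1578 window, at a promoter at chrX:11816218-11816318, the flam window, next to the start of the lncRNA flamenco at chrX:21631695-21631795 (nearest protein-coding gene DIP1), and the CG4297 window, in an intron at chr2L:470025-470125, are from the strongest regions that met no region at all in the other replicate's list. The wnd window holds the core of Ohler motif 1, and the CG1578 and CG4297 windows hold a forkhead pattern. The CG1578 match also fits the backward control pattern described further on. Other windows of this kind are not shown, among them an intron window near CG12054 with GAGAG and only the backward pattern.
trx: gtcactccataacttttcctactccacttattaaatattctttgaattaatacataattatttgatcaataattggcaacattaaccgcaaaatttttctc
spri: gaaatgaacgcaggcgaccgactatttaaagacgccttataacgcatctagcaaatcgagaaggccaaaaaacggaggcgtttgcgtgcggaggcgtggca
wnd: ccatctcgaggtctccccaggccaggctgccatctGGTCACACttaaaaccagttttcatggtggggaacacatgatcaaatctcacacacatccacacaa
Rh5: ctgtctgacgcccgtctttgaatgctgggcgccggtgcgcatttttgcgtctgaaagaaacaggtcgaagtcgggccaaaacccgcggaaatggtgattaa
CG1578: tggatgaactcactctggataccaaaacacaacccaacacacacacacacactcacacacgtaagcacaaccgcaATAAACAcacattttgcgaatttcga
flam: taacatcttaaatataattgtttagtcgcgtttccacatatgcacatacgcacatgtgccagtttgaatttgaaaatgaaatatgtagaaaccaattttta
CG4297: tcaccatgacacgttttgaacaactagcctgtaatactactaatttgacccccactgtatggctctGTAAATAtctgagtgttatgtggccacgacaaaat

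The first question was how far an unshared region fell in the other list. Of the 877 regions of replicate 2, 331 (37.7%) met a region below the top but ranked no lower than 5000 in replicate 3, 400 (45.6%) one ranked below 5000 and down to 10000, and 113 (12.9%) one ranked lower still. Only 33 (3.76%) met none of the 30000 regions. In replicate 3 the same classes held 318 (36.7%), 395 (45.6%), 130 (15.0%) and 23 (2.66%) of 866 regions. The median rank of the counterpart was 5516 with quartiles of 4460 and 7938 for replicate 2, and 5715 with quartiles of 4469 and 8081 for replicate 3. Stricter rules for a counterpart also changed which regions were unshared, from 1743 over both lists to 1874 or 2151. Of the 1874, where at least 50% of the shorter region had to overlap, 10.4% were without a counterpart by that rule. Of the 2151, where summits had to lie within 150 bp, 19.5% were without one. The rank in the other list was a median of 2.18 times the own rank for replicate 2 and 2.26 times for replicate 3. Within 500 ranks of the threshold lay 148 counterparts (16.9%) of replicate 2 and 147 (17.0%) of replicate 3.

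Own ranks were concentrated at the lower end of the top. In replicate 2 the unshared share was 0.400% over ranks 1 to 1000, 12.0% over the next 1000, 36.0% over the third 1000 and 55.6% over the rest. In replicate 3 it was 0.500%, 12.1%, 36.9% and 52.5%. The median own rank was 2898 in replicate 2 and 2874 in replicate 3. At the threshold of replicate 2 the last region inside had a signal of 68.80 and the first outside 68.79, in the authors' units, against 1143 for the first of the list. In replicate 3 both were at 45.73, against 747.7 for the first. The weakest unshared regions were an intron of raskol at rank 3705 in replicate 2, whose counterpart ranked 14888, and a non-coding exon at rank 3704 in replicate 3, whose nearest protein-coding start was that of Mi-2 and whose counterpart ranked 17332.

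**Figure D1:**
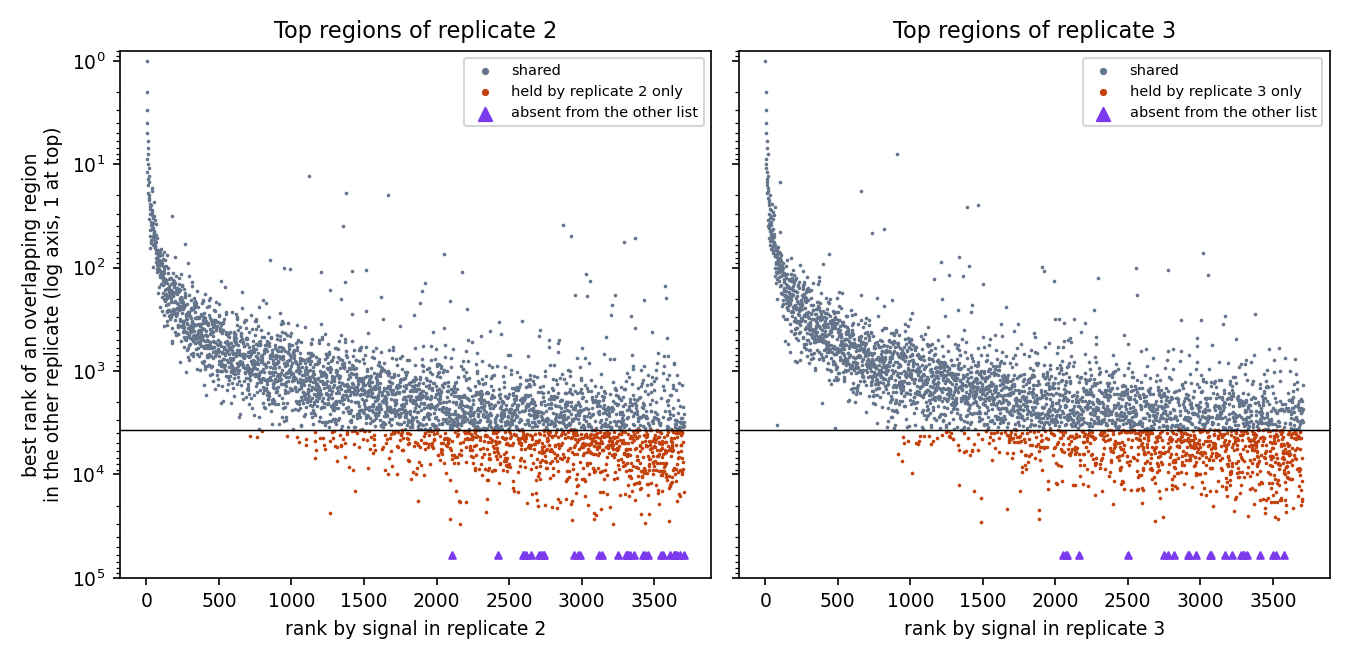
Own rank (x axis) against the best rank of an overlapping region in the other list (log y axis, rank 1 at the top) for the top regions of replicate 2 (left) and replicate 3 (right); orange points are unshared regions, grey points shared regions, violet triangles the 33 and 23 regions with no counterpart, and the line is the lower limit of the top. Orange points lie below the line by the rule, become dense beyond an own rank of 2000, and mostly sit above a rank of 10000 in the other list.

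The strongest unshared region of replicate 2 was in an intron of trx, which encodes a histone methyltransferase that keeps homeotic genes active, with a summit 2994 bp from a start site. It ranked 711 in replicate 2 and 4261 in replicate 3. The next was the promoter of l(3)neo38, where 2 overlapping entries ranked 765 and 1037 and shared a counterpart at rank 4313. The region at the start of eco, the cohesin acetyltransferase, ranked 798 against 3814. The intronic region of spri, an exchange factor for Rab5, ranked 967 against 4237. It stood 54529 bp from the nearest top summit of replicate 3.

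Below these in replicate 2 came an intron of Atg1, the kinase that starts autophagy, at rank 1052 against 4901. The promoter of Hel89B, a helicase, ranked 1102 against 5224, and that of CG1663 ranked 1103 against 4585. The promoter of Bug22, a protein of cilia and sperm tails, ranked 1159 against 6862. The last of the 10 strongest was an intronic summit within both Mur2B, a mucin-related gene, and br, a regulator of metamorphosis, at rank 1162 against 4700. In all 10 cases the counterpart in replicate 3 lay between ranks 3814 and 6862.

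In replicate 3 the strongest unshared region was in the 5′ UTR of drn, at rank 914 against 6381 in replicate 2. Tango5, which acts in transport through the Golgi, followed with a 5′ UTR region at rank 941 against 7455. The promoter of CG5114 ranked 949 against 4354, 112325 bp from the nearest top summit of replicate 2. The promoter of wnd, a kinase of the response to axon injury, ranked 958 against 4974. The promoter of cert, a ceramide transfer protein, ranked 984 against 4721, and here a top summit of replicate 2 stood 534 bp away.

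The intergenic region 590 bp from the start of Rh5, an opsin of the blue-sensitive photoreceptors, ranked 1015 in replicate 3 and only 9754 in replicate 2. Among the 10 strongest of replicate 3 it had the lowest counterpart. Galphai, a G protein subunit used in asymmetric cell division, had a promoter region at rank 1037 against 4940. The promoter of ACC, acetyl-CoA carboxylase of fatty acid synthesis, ranked 1056 against 5069, and an intron of Pect, of phosphatidylethanolamine synthesis, 1060 against 4756. An intron of CG3764 ranked 1069 against 4270. All 20 of these regions, 10 in each replicate, overlapped the set that the authors thresholded by IDR, a procedure that keeps regions whose ranks repeat across replicates. That set draws on both replicate lists and the pooled list.

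A small minority of unshared regions had no counterpart at all. In replicate 2 the best ranked of these 33 was 2109, and in replicate 3 the best of 23 was 2051. Of the 33, 23 were at promoters, 6 in introns, 3 in 3′ UTRs and 1 between genes. Of the 23 in replicate 3, 12 were at promoters, 9 in introns, 1 in a coding exon and 1 between genes. None of the 56 windows was mostly repeated sequence or lay in an annotated transposon. The nearest top summit of the other replicate was a median of 1746 bp away for replicate 2 and 5285 bp for replicate 3. All of them overlapped a region of the authors' pooled list.

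The 5 strongest of replicate 2 without a counterpart were the promoter of slmo, a mitochondrial protein, at rank 2109, the promoter of CG1578 at 2425, the promoter of shu, a cochaperone of the piRNA pathway, at 2596, a region at 2600 and, at 2614, an intron of dnr1 with CG11362 as the nearest protein-coding start. The region at rank 2600 lay 146 bp from the start of flamenco, the locus that gives rise to piRNAs against retrotransposons in the somatic cells of the ovary, and 257801 bp from the nearest top summit of replicate 3. In replicate 3 they were the promoter of CG10737 at rank 2051, an intron of CG4297 at 2073, the promoter of Picot at 2084, an intron of CG12054 at 2162 and an intron of CG32264 at 2498. Each of these 10 ranked below 2000 in its own list.

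The second question was where unshared regions lie, which the rule did not use. A summit within 500 bp of any annotated start site was called a promoter summit. This held for 557 of 877 unshared regions of replicate 2 (63.5%, 95% Wilson interval 60.3 to 66.6) and 506 of 866 of replicate 3 (58.4%, 55.1 to 61.7). Among shared regions it held for 73.3% (71.6 to 74.8) and 73.4% (71.7 to 74.9). The intervals cover counting error over regions only, since the comparison has 2 libraries, each of which repeats it once. The promoter share was lower among unshared regions in both lists, by 9.74 percentage points (95% Newcombe interval 6.20 to 13.4) in replicate 2 and 14.9 points (11.3 to 18.6) in replicate 3. Here and later a difference in points is the shared minus the unshared share. With only 1000 regions per list the direction turned, with 78.2% (73.6 to 82.2) of unshared and 76.5% (74.4 to 78.5) of shared summits at promoters. The promoter share was 56.0% and 53.7% over the same number of regions next below the top, so the unshared regions stood between those and the shared ones.

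Introns made up the difference in the main. They held 26.5% (23.6 to 29.5) of the unshared summits of replicate 2 and 30.7% (27.7 to 33.9) of those of replicate 3, against 20.1% of shared summits in each list. Intergenic summits made up 5.59% and 6.93%, against 4.49% and 4.33%. Coding exons held 6 unshared summits in replicate 2 and 2 in replicate 3.

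**Figure D2:**
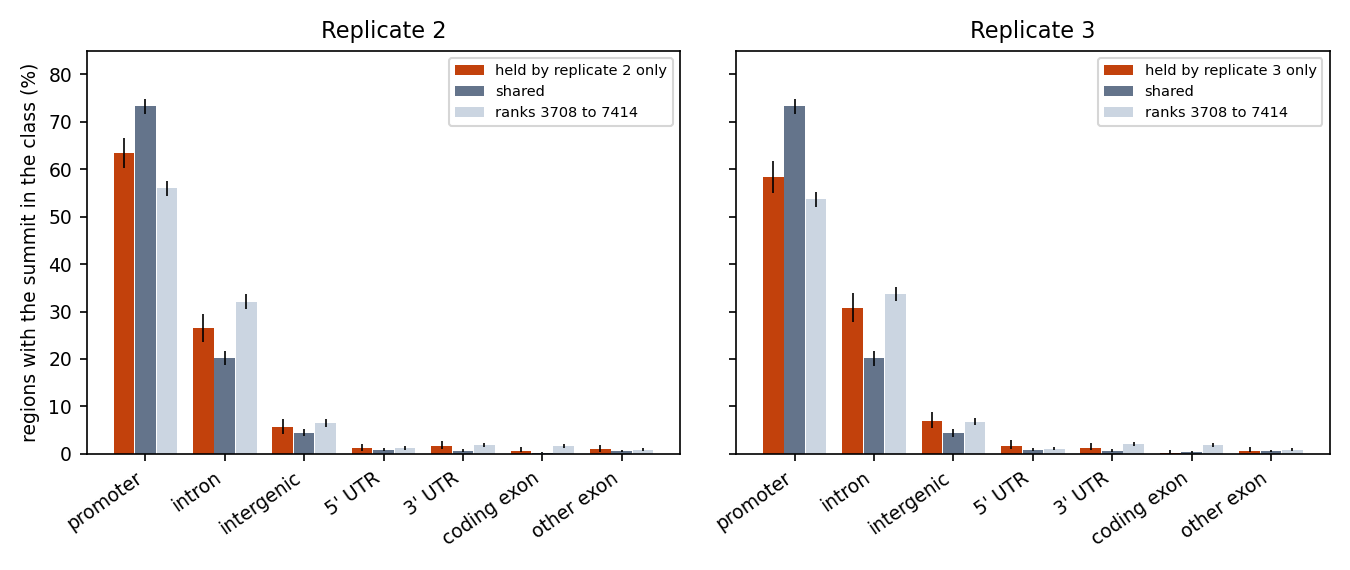
Share of summits in each annotation class (y axis, percent, bars from 0) for unshared regions (orange), shared regions (dark grey) and as many regions next below the top (light grey) of replicate 2 (left) and replicate 3 (right), with 95% Wilson intervals as error bars. Promoter summits made up 63.5% and 58.4% of unshared regions against 73.3% and 73.4% of shared ones, and introns 26.5% and 30.7% against 20.1%.

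Because unshared regions rank low and promoter shares fall with rank, the same shares were read within classes of own rank. Over the third 1000 ranks of replicate 2, promoters held 66.9% of unshared and 67.2% of shared summits, a difference of 0.243 points (-5.72 to 6.37). Over its remaining top ranks they held 58.0% and 66.6%, a difference of 8.55 points (1.34 to 15.6). In replicate 3 the shares over the third 1000 ranks were 58.8% and 68.1%, a difference of 9.34 points (3.17 to 15.5), and over the rest 57.4% and 69.9%, a difference of 12.5 points (5.43 to 19.4). The promoter share of unshared regions was the lower one in each of these classes, and the interval of the difference held 0 only in the first of them. The difference between the replicates was not tested.

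**Figure D3:**
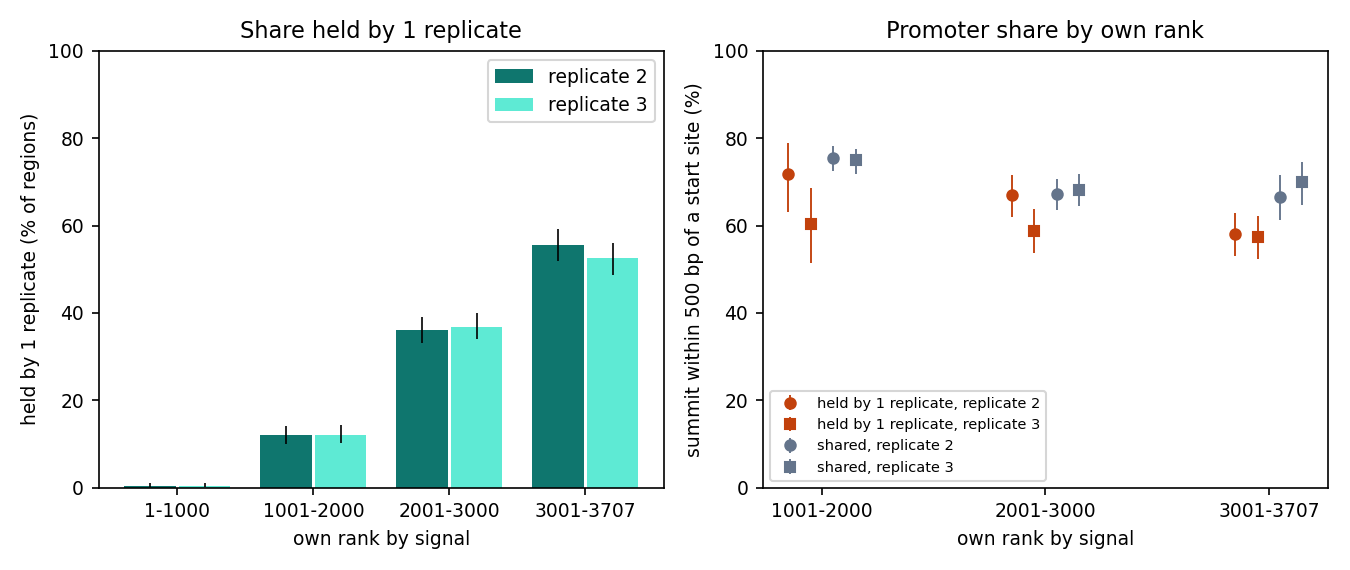
Left, share of the regions of each own-rank class that were unshared (y axis, percent, bars from 0) in replicate 2 (dark) and replicate 3 (light). Right, share of summits within 500 bp of a start site for unshared (orange) and shared (grey) regions by own rank, circles for replicate 2 and squares for replicate 3, with 95% Wilson intervals throughout. The unshared share climbs from 0.400% and 0.500% to 55.6% and 52.5%, and the promoter share of unshared regions lies below that of shared regions in each class drawn, by 0.243 points over the third 1000 ranks of replicate 2.

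Promoter shares were also read by how far a region had fallen in the other list. In replicate 2 the promoter share was 63.7% where the counterpart ranked no lower than 5000, 64.5% where it ranked below that and down to 10000, 57.5% for lower ranks and 69.7% without a counterpart. In replicate 3 the shares were 61.6%, 58.2%, 52.3% and 52.2%. The last class held only 33 and 23 regions, and the shares gave no common order in the 2 lists.

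Position around the start site differed as well. Unshared summits lay a median of 194 bp (replicate 2) and 264 bp (replicate 3) from the nearest start, against 136 and 134 bp for shared ones. At own ranks below 2000 these medians were 206 and 265 bp against 174 and 156 bp, a smaller gap in both lists. Of promoter summits, 64.5% (60.4 to 68.3) and 65.2% (61.0 to 69.2) were upstream of the start when unshared, against 75.6% and 76.6% when shared. At own ranks below 2000 the upstream shares were 62.5% and 64.9% against 68.2% and 69.5%, differences of 5.76 points (0.106 to 11.4) and 4.59 points (-1.07 to 10.3). Away from promoters the median distance to a start was alike, 1753 and 1736 bp for unshared and 1713 and 1706 bp for shared summits.

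Distances to the nearest top summit of the other replicate, shared or not, were bounded from below by the rule. Only 5 of replicate 2 and 6 of replicate 3 had a top summit of the other replicate within 500 bp, and the rule itself bars nearly all of these. A further 241 (27.5%) and 270 (31.2%) had one between 500 and 2000 bp away, and 631 (71.9%) and 590 (68.1%) had none within 2000 bp. Where a counterpart existed lower in the other list, its summit was a median of 48.5 and 47.0 bp away. For shared regions that distance was 27.0 bp in each list. Counterpart summits over 150 bp away made up 21.4% (18.8 to 24.3) and 17.4% (15.0 to 20.1) of unshared regions, against 11.4% and 10.4% of shared ones. Overlapping entries of the same list joined the 877 regions into 855 separate sites and the 866 into 847.

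The arms carried unshared regions much as they carried shared ones. The X chromosome held 21.1% (18.5 to 23.9) of the unshared regions of replicate 2 and 18.0% (15.6 to 20.7) of those of replicate 3. Shared regions were on the X in 18.3% and 18.4% of cases, and the X makes up 17.6% of the length of the 6 arms. GC content over 301 bp around the summit had a median of 40.5% and 40.2% for unshared, 38.5% in each list for shared, and 42.2% and 42.5% for all lower-ranked regions. Every unshared region had the standard width of its list, 440 bp in replicate 2 and 424 bp in replicate 3. Of shared regions, 287 of 2830 and 176 of 2841 had another width, but at own ranks below 2000 only 1 of 954 and 0 of 967. Only 1 window in replicate 2 and none in replicate 3 was mostly repeated sequence.

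Short patterns were counted within 50 bp of each summit on both strands. The DNA replication-related element (DRE, TATCGATA) is read by the factor DREF at housekeeping promoters, and the core of Ohler motif 1 (GGTCACAC) marks promoters of the same kind. DRE was present in 4.10% (2.98 to 5.63) and 3.12% of unshared windows, against 3.67% and 3.63% of shared ones and 0.841% and 0.875% of all lower-ranked ones. In windows centred 500 bp away from unshared summits of replicate 2 it was present in 0.342%. DRE matches lay almost wholly at promoters, with 0 of 320 and 2 of 360 windows elsewhere. At promoters it was in 6.46% and 4.94% of unshared, 4.82% and 4.80% of shared and 4.14% and 4.67% of windows next below the top. These last shares cover only the ranks next below the top, whereas 0.841% and 0.875% cover all lower ranks. Over all windows next below the top of replicate 2, at promoters or not, DRE was in 2.37% (1.93 to 2.92). How far fewer promoters go with the lower overall share was not tested. The motif 1 core was present in 2.05% and 3.46% of unshared windows against 1.80% and 1.83% of shared ones. At promoters of replicate 3 it reached 5.53% (3.86 to 7.88) of 506 unshared against 2.50% (1.91 to 3.26) of 2084 shared windows. In replicate 2 the same shares were 3.05% and 2.46%, a difference of -0.592 points (-2.47 to 0.776), so a gap beyond counting error was seen in 1 list. At own ranks below 2000 it was 5.58% (3.78 to 8.17) against 3.46% (2.32 to 5.14) in replicate 3, a difference of -2.12 points (-4.95 to 0.340).

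The GAGAG pattern, part of the sites of GAGA factor, was in 15.2% (12.9 to 17.7) and 17.6% of unshared windows against 12.0% and 12.4% of shared ones. At promoters of own rank below 2000 it was in 14.5% and 16.0% against 13.0% and 14.6%, and the intervals of the difference held 0 in both lists. The forkhead pattern, here a purine, a pyrimidine, AAA, a pyrimidine and A, was in 33.8% (30.7 to 36.9) of unshared windows in replicate 2 and 33.8% in replicate 3. In shared windows it was in 36.9% and 37.0%, and in all lower-ranked ones, down to background, 26.4% and 26.2%. Over the ranks next below the top of replicate 2 it was in 31.7% (30.2 to 33.2), nearer to the unshared share. The same letters read backwards served as a control, and they were in 27.1% and 27.7% of unshared windows and 30.5% and 29.9% of shared ones. The forward pattern was the more frequent of the pair in both classes, but also in lower-ranked windows of replicate 2 (26.4% against 23.3%). Its share differed between shared and unshared windows by 3.17 points (-0.472 to 6.72) and 3.13 points (-0.540 to 6.68). Both intervals held 0. The forward and backward patterns can match the same letters, and a match is a description of the letters only. The E-box CACGTG, bound by the clock factors Clk and cyc, was in 1.48% and 1.27% of unshared windows and 1.41% and 1.09% of shared ones.

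**Figure D4:**
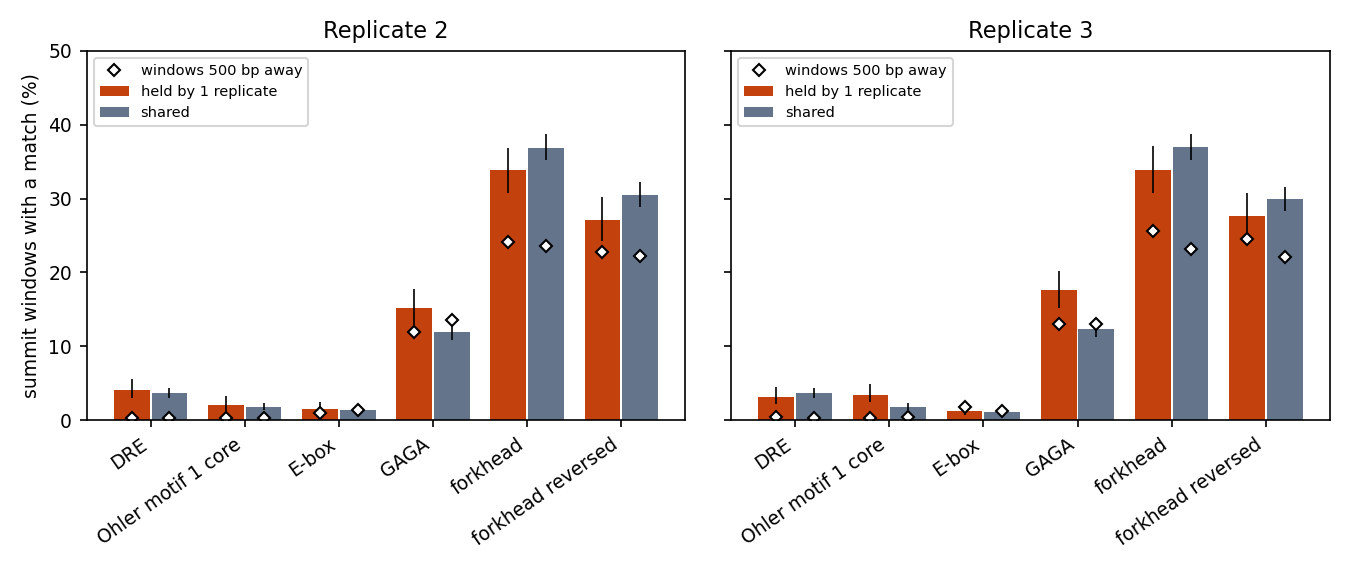
Share of 101 bp summit windows with at least 1 match to each pattern (y axis, percent, bars from 0) for unshared (orange) and shared (grey) regions of replicate 2 (left) and replicate 3 (right), with 95% Wilson intervals; diamonds give windows centred 500 bp away from the same summits. Forkhead matches were in 33.8% of unshared windows of each list and in 36.9% and 37.0% of shared windows.

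The third question was which genes the unshared regions add. Of 13945 protein-coding genes, 2599 (18.6%) had a shared summit within 500 bp of a start. An unshared summit was there in 659 genes (4.73%) for replicate 2 and 620 (4.45%) for replicate 3. Of the genes with an unshared summit, 155 also had a shared one at the same or another start. There were 24 protein-coding genes with different unshared regions in the 2 replicates. In SERCA, the calcium pump of muscle, they ranked 3468 in replicate 2 and 1338 in replicate 3, with summits 2696 bp apart. In Atg8a, which coats autophagosomes, they ranked 1491 and 2525 with summits 1170 bp apart, and in Treh, trehalase, 2604 and 3013 with summits 647 bp apart. These 3 were picked after their values were seen.

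The gene lists below are set beside the background of 4.73% and 4.45% of protein-coding genes. Cytoplasmic ribosomal protein genes mostly had shared regions, 68 of 93, and an unshared one in 3 genes for replicate 2 and 5 for replicate 3. The strongest in replicate 2 was RpL39, at rank 1286 against 4489. Mitochondrial ribosomal proteins had 24 of 73 genes shared and 6 and 7 unshared. Replicate 2 held mRpL35 (rank 2093), mRpL32 (2105) and mRpS24 (2212) highest, and replicate 3 mRpL47 (1160), mRpL55 (2395) and mRpL17 (2439). Respiratory chain genes were shared in 24 of 91 cases and unshared in 5 and 7. Of these ND-B8, a subunit of complex I, ranked 1978 against 5599 in replicate 2, and ND-15 ranked 1600 against 3901 in replicate 3. Proteasome genes had 2 and 3 unshared of 48, with 8 shared.

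Clock genes had a shared region in 12 of 24 cases and an unshared one in 3 and 1, of which tyf and Pdp1 had both. In replicate 2 lark, an RNA-binding protein of clock output, had the region it shares with eco at rank 798, and tyf, which promotes translation of the period mRNA, had one at rank 1234 against 5651. The promoter of tim, the partner of period, ranked 3246 in replicate 2 and 5598 in replicate 3. In replicate 3 Pdp1, an activator of Clk, ranked 2048 against 11566. Among insulin and TOR genes, 5 of 27 were shared, with S6k unshared in replicate 2 (2389 against 4016) and 4 in replicate 3. These were Ilp7, an insulin-like peptide (2501 against 4542), Rheb, the GTPase that activates TOR (2707 against 8027) and Akt (3281 against 6731), with 1 more gene. Of the forkhead family, 3 of 18 genes had a shared region, and FoxK, which is 1 of these, also had an unshared one in replicate 3, close to the start of mRpL2 as well.

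In each remaining list of protein-coding genes, at most 3 genes had an unshared region in either replicate. Muscle genes had 3 and 2 of 26, led by flr, an actin-severing cofactor, at rank 2695 in replicate 2 and SERCA in replicate 3. Fat body genes had 2 and 3 of 20, led by Desat1, a fatty acid desaturase, at 2760 in replicate 2 and ACC in replicate 3, both with a shared region too. Chaperone genes had 2 and 3 of 27, led by Hsp22 at 2752 in replicate 2 and, beside a shared region, DnaJ-H at 1612 in replicate 3. Of 26 germ plasm and piRNA genes, bgcn, needed for germ cell differentiation, ranked 1538 and shu 2596 in replicate 2, with none in replicate 3. Of 39 antimicrobial and recognition genes none was shared, and replicate 3 held the recognition proteins PGRP-LE (2584) and PGRP-LB (2809). The list that holds chorion genes had 2 of 24 in replicate 3, Cp110 (2414) and the chorion gene Cp38 (2464). Developmental patterning genes had 1 of 47 in replicate 2, the eye regulator so (3602), and 3 in replicate 3, with sd (3205), hry (3236) and cad (3481). Neuronal genes had 1 of 25, Syx1A, a syntaxin of synaptic release, at 1664 in replicate 3. Of 80 accessory gland and testis genes only bol had one, at 3586 in replicate 3. Of 37 gut genes only Myo31DF, a myosin, had one, at 2581 in replicate 2. Histone, photoreceptor and glial genes had none in either replicate at their promoters.

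Transfer RNA genes gave the most uneven count of the lists, a ranking made after the counts were seen. Of 290 genes, 15 had a shared summit within 500 bp, 12 (4.14%) an unshared one in replicate 2 and 0 (0%) in replicate 3. The background over protein-coding genes was 4.73% and 4.45%. The difference between the replicates was not tested. The 12 genes lay at 10 regions, since 2 pairs of neighbours share a summit. The strongest was at tRNA:Ser-TGA-1-1 and tRNA:Ser-TGA-2-1, at rank 1316 in replicate 2 and 5412 in replicate 3. Next came tRNA:Val-CAC-1-1, at 2350 against 17212, and tRNA:Thr-AGT-1-4, at 2475 against 4551. At tRNA:His-GTG-1-4, at rank 3305 and named after its value was seen, replicate 3 had no region. The count depended on the size of the top list, with 4 genes in replicate 2 and 2 in replicate 3 at 2000 regions per list, and 17 and 2 at 5000. Requiring summits within 150 bp gave 12 and 1. These other settings were chosen after the counts were seen. Small nucleolar RNA genes had 6 and 4 unshared of 269, among them snoRNA:Me18S-C1968 at rank 1923 in replicate 2 and snoRNA:Or-aca2 at 1981 in replicate 3. Small nuclear RNA genes had 1 and 0 of 32, the 1 being snRNA:U4:39B at rank 1980.

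**Figure D5:**
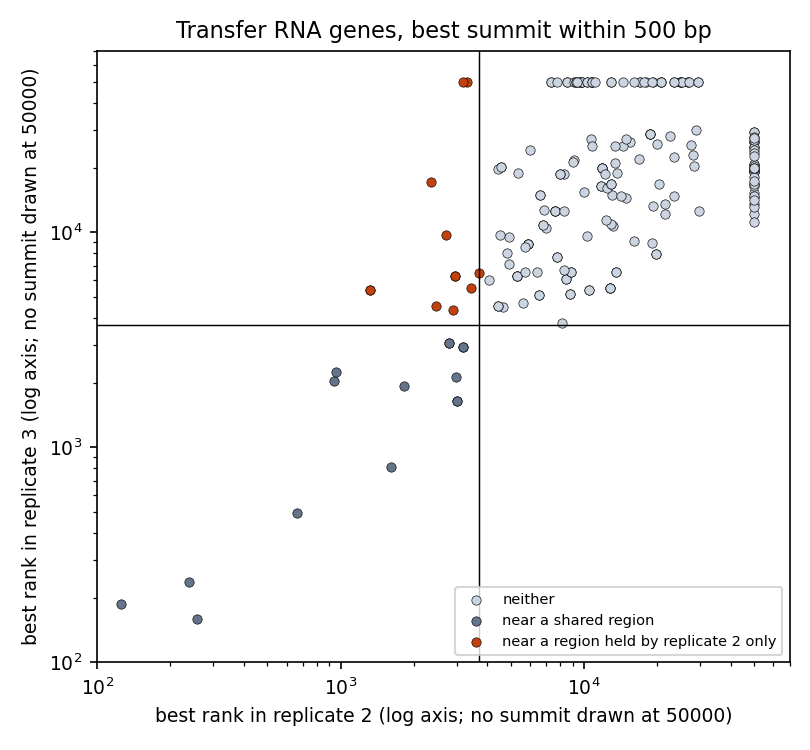
Best rank of a summit within 500 bp of each transfer RNA gene in replicate 2 (x axis) and replicate 3 (y axis), both log axes, with genes lacking a summit in one list drawn at 50000 and lines at the lower limit of the top. Orange points are the 12 genes near a region held by replicate 2 only, some of them on top of each other, dark points are the 15 near a shared region, and the quadrant for replicate 3 only is empty.

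The thresholded set overlapped unequal shares of the unshared regions of the 2 replicates. It took in 520 of the 877 unshared regions of replicate 2 (59.3%, 56.0 to 62.5) and 349 of the 866 of replicate 3 (40.3%, 37.1 to 43.6), against 99.4% and 99.5% of shared regions. In the pooled list the median rank of unshared regions was 3505 for replicate 2 and 3974 for replicate 3, against 1293 and 1294 for shared ones. Both lists come from the same reads as the ranks that chose the regions, so these shares are a description. At the Crg-1 gene itself no unshared region was found. The list of replicate 3 had 4 regions within 5000 bp of it, at rank 16678 or lower, and that of replicate 2 had none.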

How the data were processed

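Per the deposited descriptions, the authors derived each replicate list from that replicate's alignments and 1 control alignment common to both, and the thresholded set from the 2 replicate lists and a pooled list by IDR. No label or file names the aligner or the caller. The deposited signal column, in the authors' own units, was used only to rank regions within a list. The deposited −log10 q column was read but not used to rank. The depth of sequencing is unknown, which leaves the counting error of single regions unknown.

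Regions of the dm6 lists were ranked by signal, the first 3707 taken (the size of the thresholded set), and split by overlap of at least 1 bp in Python 3.11.15 (pandas 2.3.3, NumPy 2.4.6), after the steps were tested on simulated lists. Each summit took 1 class, in the order promoter (start site within 500 bp), UTR, exon, intron and intergenic, by Ensembl release 115, transposons left out. From the dm3 lists came counts, ranks and arm shares only. Shares carry 95% Wilson intervals and differences of shares Newcombe intervals. No p-value was computed, since regions are not replicates and 1 group has no contrast.

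The members, the 23 gene lists and the patterns were chosen with earlier results of these data known. Of the names in the lists, 6 matched through an older symbol and 2 matched no gene. Genes named are the nearest protein-coding genes of the 10 strongest unshared regions of each replicate, of the 5 strongest without a counterpart and of the weakest, and up to 3 per list and replicate; others are said to be picked later. Alternatives covered the size of the top, the overlap rule, merged entries, build, promoter distance, start sites, window and each replicate alone.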

Additional observations from a re-analysis of the deposited data

How the results depend on the processing

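Of 113 recomputed values, 60 stayed within 1.5 times the count or within the 95% interval of the value over both lists, and 53 did not. Over both lists the unshared share of top regions was 23.5%. Of unshared regions, 61.0% were at promoters (73.3% of shared ones), 28.6% in introns, 0.459% in coding exons and 19.6% on the X, 37.2% had a counterpart no lower than rank 5000 (called a near miss, with the limit scaled to the list size), 3.21% had none, 3.61% held DRE and 33.8% the forkhead pattern.

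With 1000 regions per list there were 181 and 177 unshared regions (17.9%), and at that size the promoter share of unshared regions, 78.2%, was above that of shared ones, 76.5%. There introns held 15.9%, the X 22.1%, near misses made up 50.3% and regions without a counterpart 0%. With 2000 per list there were 416 and 409 (20.6%), with promoters at 66.7% against 77.7%, introns 24.5%, the X 17.7%, near misses 40.2%, none without a counterpart (0%) and forkhead 39.6%. With 5000 per list promoters held 58.3% against 71.0%, introns 31%, coding exons 0.924%, near misses 34.4% and regions without a counterpart 6.38%. The lower promoter share of unshared regions was therefore not seen at the 1000 regions of highest signal.

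Requiring an overlap of at least 50% of the shorter region gave an unshared share of 25.3%, near misses of 33.2% and 10.4% without a counterpart. Requiring summits within 150 bp gave 29.0%, promoters of 63.7%, near misses of 28.9% and 19.5% without a counterpart. Merging overlapping entries gave 24.7% and 5.02% without a counterpart. The count without a counterpart thus rests on the overlap rule. The dm3 lists moved none of their 6 values. Promoter distances of 250 and 1000 bp gave 51.1% and 73.6% for unshared against 64.2% and 80.7% for shared regions, and protein-coding starts alone 58.2% against 70.9%. A window of 100 bp on each side gave DRE in 5.57% and forkhead in 55.1%. At own ranks up to 2000 promoters held 65.6% against 76.1%, introns 24.8%, coding exons 0%, near misses 55.2%, no counterpart 0% and forkhead 38.4%.

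Each replicate's unshared regions alone, still defined by overlap with the other list, gave 58.4% to 63.5% for promoters, 26.5% to 30.7% for introns and 0.231% to 0.684% for coding exons. No paired analysis was possible because the 2 libraries form 1 group. The cause of these shifts was not tested. The 2 libraries, the shared control and the unknown depth limit every share to a description of these lists.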

Other observations

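More of the regions without a counterpart are given here by gene, and all genes except shu and flamenco were picked after their values were seen. In replicate 2, beside the promoter of shu (rank 2596) and the start of flamenco (2600) came the promoter of Panx, a factor of piRNA-guided transcriptional silencing, at rank 2654, and that of smg, a repressor of maternal mRNAs, at 2742. Promoters of the signalling genes Jra, the fly Jun (2973), and Raf (3549), and of sls, which encodes a titin-like muscle protein (3363), were in the same group. In replicate 3 the group held promoters of Hsc70-3, the chaperone of the endoplasmic reticulum (2821), mRpS31 (3292) and Vha100-2, a subunit of the proton pump (3219). Hsc70-3 and Vha100-2 each also had a shared region and a different unshared region in replicate 2, at ranks 3524 and 2778. No list was tested for these genes, and regions without a counterpart numbered 33 and 23 in all.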
